A study of Mus musculus with 8 samples.

Results

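The genes described here encode the ephrin, semaphorin and Slit guidance signals and the receptors that bind them. They were taken from the array annotation by symbol, as every symbol that begins with Epha, Ephb, Efna, Efnb, Sema or Plxn, together with Slit1, Slit2, Slit3, Robo1, Robo2, Robo3, Nrp1 and Nrp2. The rule found 59 of the 18193 genes of the table: 8 ephrins, 13 Eph receptors, 20 semaphorins, 12 genes under plexins and neuropilins, and 6 Slit and Robo genes. Each was read through 1 probe set, a group of short array probes for 1 transcript, chosen as the one with the highest mean over all arrays. The symbol prefix also caught Plxna4os1, an RNA antisense to Plxna4, which is counted but is no plexin. Ephb2 had no probe set with a single symbol and was not analysed here.

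RNA was profiled in mouse embryonic stem cells (mESCs) and in pancreatic islet-like endocrine cells (PILECs) made from them by differentiation in culture. There were 4 groups: menin-null PILECs, wt PILECs, menin-null mESCs and wt mESCs. The menin-null line was 3.2N, a knockout of Men1, which encodes menin. The wt line was TC-1, and both lines had the genetic background 129S6/SvEvTac. Each genotype was a single line, so genotype and line cannot be told apart. Each group had 2 arrays from 2 independent cultures, so the tests measure the spread between cultures of 1 line. The mESCs had been grown on feeder fibroblasts, which were removed by repeated plating before use. Values are log2 signals, and differences between groups are log2 differences, with a fold change given where it helps.

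Ephrins are ligands held on the cell surface, and their Eph receptors are tyrosine kinases on neighbouring cells, so that both cells can receive a signal. Semaphorins are secreted or membrane-bound ligands of plexins, with neuropilins as co-receptors for the secreted class, and Slits are secreted ligands of Robo receptors. The families are best known for steering axons and for sorting cells in the embryo, and in the mouse EphA receptors and their ephrins are also known to adjust insulin release by beta cells.

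The sequences around the transcription start are shown for 4 members. Nrp1 and Epha2 had the largest rise and the largest fall on differentiation, and Epha5 and Efnb2 had the largest menin-null differences past the test in PILECs and in mESCs among genes with a group mean of at least 7. Each run is a RefSeq promoter window on build GRCm38.p6, from 250 bases before to 50 after the annotated start, read 5′ to 3′ on the gene's strand. Capitals mark CG dinucleotides, the site of DNA methylation in mammals.
Nrp1 promoter, chr8:128358823-128359122, plus strand, 14 CG: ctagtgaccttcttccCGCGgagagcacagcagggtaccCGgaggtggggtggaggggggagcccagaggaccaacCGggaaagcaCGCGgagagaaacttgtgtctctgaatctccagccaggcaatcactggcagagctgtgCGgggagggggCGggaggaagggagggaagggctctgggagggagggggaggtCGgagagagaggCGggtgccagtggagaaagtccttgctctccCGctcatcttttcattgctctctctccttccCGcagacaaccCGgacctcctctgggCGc
Epha2 promoter, chr4:141300971-141301270, plus strand, 10 CG: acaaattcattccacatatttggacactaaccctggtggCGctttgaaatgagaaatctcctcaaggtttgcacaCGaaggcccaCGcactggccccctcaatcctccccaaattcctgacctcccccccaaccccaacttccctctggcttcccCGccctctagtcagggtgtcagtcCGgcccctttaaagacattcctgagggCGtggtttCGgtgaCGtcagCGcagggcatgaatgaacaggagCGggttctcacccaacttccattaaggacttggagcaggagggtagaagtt
Epha5 promoter, chr5:84417333-84417632, minus strand, 30 CG: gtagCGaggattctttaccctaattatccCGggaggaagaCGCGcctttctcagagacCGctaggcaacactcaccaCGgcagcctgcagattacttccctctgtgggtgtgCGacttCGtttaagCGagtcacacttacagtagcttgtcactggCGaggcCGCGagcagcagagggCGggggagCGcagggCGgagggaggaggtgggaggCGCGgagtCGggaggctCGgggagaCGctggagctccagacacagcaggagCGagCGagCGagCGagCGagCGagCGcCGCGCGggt
Efnb2 promoter, chr8:8661193-8661492, minus strand, 35 CG: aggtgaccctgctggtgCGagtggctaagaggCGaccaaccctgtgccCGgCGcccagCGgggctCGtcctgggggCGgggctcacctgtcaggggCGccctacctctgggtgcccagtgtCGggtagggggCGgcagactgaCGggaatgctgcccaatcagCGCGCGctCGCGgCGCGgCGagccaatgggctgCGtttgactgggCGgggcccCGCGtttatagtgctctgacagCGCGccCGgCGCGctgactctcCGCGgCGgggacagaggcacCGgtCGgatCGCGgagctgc

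The arrays of each group resembled each other closely (Pearson's r of 0.993 to 0.998 over probe sets), and the 2 menin-null mESC arrays differed most (SD of their difference 0.283, against 0.159 to 0.212 in the other groups). Men1 was 4.01-fold lower in menin-null than in wt PILECs and 4.42-fold lower in menin-null than in wt mESCs, in the direction of the genotype labels. In PILECs the label was checked against 19 islet endocrine markers. At least 7, a limit set here below which a signal is taken as low, was reached by 8 in menin-null and 9 in wt PILECs, against 4 in menin-null and 3 in wt mESCs. On differentiation 10 rose and 1 fell in the menin-null line, and 8 rose and 4 fell in the wt line. Those at 7 or more in PILECs were Ins2 (7.37 in menin-null and 7.23 in wt PILECs), Sst (8.10 in menin-null and 9.06 in wt PILECs), Chga, Chgb (11.29 in menin-null and 10.75 in wt PILECs), Pax6, Neurod1, Nkx2-2, Nkx6-1 and, in wt PILECs, Isl1. The others, among them Gcg, Iapp, Ppy, Pdx1 and Slc2a2, were under 7 in both lines, and neurons also make Chga, Chgb and Sst. The 12 neuronal markers averaged 11.81 to 12.03 on the PILEC arrays and 7.65 to 7.91 on the mESC arrays, and the 10 fibroblast markers 10.1 to 10.5 on the PILEC arrays and 6.20 to 6.36 on the mESC arrays. PILEC is used here as the name of the culture.

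Guidance genes were more widely expressed in PILECs than in mESCs. Of the 59 genes, 47 had a group mean of at least 7 in menin-null PILECs and 47 in wt PILECs, against 33 in menin-null mESCs and 32 in wt mESCs. Over all genes the share at this level was nearly the same in the 4 groups, at 59.2%, 59.1%, 58.3% and 58.5% in the same order. Of the guidance genes, 17 reached 7 in PILECs of both lines and in mESCs of neither: Epha3, Epha5, Epha7, Ephb1, Nrp1, Plxna2, Plxnb3, Plxnc1, Plxnd1, Robo1, Sema3a, Sema3c, Sema5a, Sema6a, Sema6b, Sema6d and Slit2. The reverse held for Epha1 and Sema3e. Another 9 stayed under 7 in every group (Epha6, Epha8, Ephb6, Plxna4os1, Robo2, Robo3, Sema3b, Sema3d and Sema3g). In bulk RNA, fewer cells of a type and less RNA per cell cannot be told apart.

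**Figure D1:**
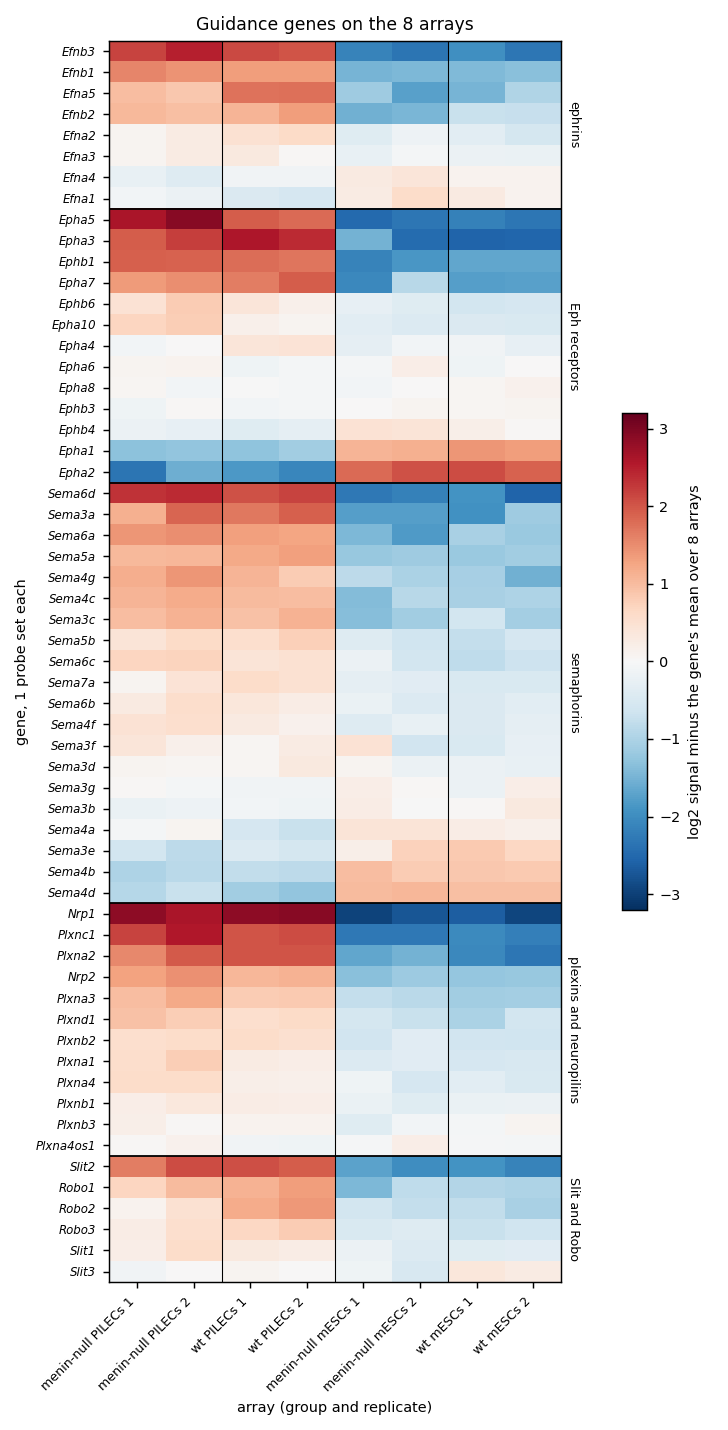
Heat map of the 59 guidance genes (rows, by family) on the 8 arrays (columns), where colour is the log2 signal minus the mean of that gene over all arrays. Most rows are above their mean in the 4 PILEC arrays and below it in the 4 mESC arrays, with Epha1, Epha2, Sema4b and Sema4d as the clearest reverse cases.

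The first question was how these genes moved when each line differentiated. In the menin-null line 40 rose, 9 fell and 10 did not pass the test, and in the wt line 41 rose, 9 fell and 9 did not pass it (limma, Benjamini-Hochberg adjusted p under 0.05 over all genes). Over all genes, 28.9% rose and 36.1% fell in the menin-null line, and 27.8% rose and 35.3% fell in the wt line, so that 65% of the menin-null and 63.1% of the wt differences were called. The median difference of the guidance genes was 0.96 in the menin-null line and 1.01 in the wt line, against -0.07 (menin-null) and -0.08 (wt) over all genes. The same 39 genes rose and the same 9 fell in both lines. The genes of the whole table called alike in both lines were not counted. This overlap is therefore not read as particular to the guidance genes. The neuronal and fibroblast markers given above also moved with differentiation (11 of 12 neuronal markers rose in the menin-null and 12 in the wt line), and their part in these differences was not tested.

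Among the ligands on the cell surface, 6 of the 8 ephrins rose and 2 fell in each line (median 1.40 in the menin-null and 1.48 in the wt line). Efnb3, a transmembrane ephrin known from the midline of the nervous system, was at 11.54 and 11.88 in menin-null PILECs against 7.24 and 7.05 in menin-null mESCs, and at 11.49 and 11.39 in wt PILECs against 7.44 and 7.08 in wt mESCs. Its PILEC and mESC arrays lay far apart in both lines, with differences of 4.56 ± 0.15 (menin-null) and 4.18 ± 0.15 (wt) (± model SE throughout). Efnb1, the transmembrane ephrin encoded on the X chromosome, rose by 2.96 in the menin-null and 2.72 in the wt line. Efnb2, the ephrin of arterial vessels and a ligand of Ephb4, rose by 2.50 (menin-null) and 1.95 (wt), and Efna5, a membrane-anchored ligand of several EphA receptors, by 2.37 (menin-null) and 2.97 (wt). Smaller rises were seen for Efna2 (0.44 in the menin-null and 1.01 in the wt line) and Efna3 (0.33 in the menin-null and 0.37 in the wt line). The other probe set of Efna3, a dimmer one, rose by 1.47 (menin-null) and 1.09 (wt). Efna1, a ligand of Epha2, fell by 0.57 (menin-null) and 0.70 (wt), and Efna4 fell by 0.67 (menin-null) and 0.23 (wt).

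The Eph receptors split more evenly. In the menin-null line 6 of 13 rose and 3 fell, and in the wt line 7 rose and 3 fell (medians 0.16 in the menin-null and 0.59 in the wt line). Epha3, a receptor of Efna5, was at 8.67 and 8.97 in menin-null PILECs against 5.22 and 4.28 in menin-null mESCs, and at 9.33 and 9.12 in wt PILECs against 4.19 and 4.20 in wt mESCs. The mESC arrays of the menin-null line were far from each other, yet all PILEC arrays lay above all mESC arrays. Epha5, the EphA receptor of neurons and beta cells, was at 9.83 and 10.15 in menin-null PILECs against 4.74 and 4.92 in menin-null mESCs, and at 9.18 and 9.04 in wt PILECs against 5.06 and 4.93 in wt mESCs. It rose by 5.16 ± 0.13 in the menin-null and 4.12 ± 0.13 in the wt line. Ephb1, a receptor of B-class ephrins, rose by 3.90 (menin-null) and 3.42 (wt), and Epha7, an EphA receptor of the developing brain, by 2.91 (menin-null) and 3.54 (wt). In the wt line the mean of all probe sets gave 3.21 for Epha3 and 2.16 for Epha7.

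Epha2 went the other way. This receptor, known from epithelia and the early embryo, was at 6.82 and 7.59 in menin-null PILECs against 10.98 and 11.21 in menin-null mESCs, and at 7.31 and 7.07 in wt PILECs against 11.26 and 11.06 in wt mESCs. The groups did not overlap in either line, and it fell by 3.89 ± 0.23 (menin-null) and 3.97 ± 0.23 (wt), which is 14.8-fold in the menin-null and 15.7-fold in the wt line. Epha1, an Eph receptor of epithelia, fell by 2.40 (menin-null) and 2.58 (wt). Ephb4, the receptor of Efnb2 on veins, fell by 0.65 (menin-null) and 0.45 (wt). Ephb3, a receptor of B-class ephrins, was at 9.19 to 9.41 on all 8 arrays, and its differences of -0.09 (menin-null) and -0.16 (wt) did not pass the test. Ephb6 and Epha10, both Eph receptors without an active kinase, rose by 0.96 and 1.13 in the menin-null line and by 0.83 and 0.59 in the wt line, although Ephb6 stayed under 7. Epha6 and Epha8, at low signal throughout, did not pass the test in either line.

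Of the 20 semaphorins, 12 rose and 4 fell in the menin-null line, and 13 rose and 4 fell in the wt line (medians 0.79 in the menin-null and 0.86 in the wt line). Sema6d, a transmembrane semaphorin that binds Plxna1, was at 10.06 and 10.14 in menin-null PILECs against 5.48 and 5.59 in menin-null mESCs, and at 9.79 and 9.93 in wt PILECs against 5.85 and 5.19 in wt mESCs. It rose by 4.57 ± 0.19 (menin-null) and 4.34 ± 0.19 (wt). Sema3a, a secreted repellent of axons that acts through Nrp1, rose by 3.25 ± 0.29 (menin-null) and 3.34 ± 0.29 (wt). Sema6a, a transmembrane ligand of Plxna2 and Plxna4, rose by 3.07 (menin-null) and 2.40 (wt), and Sema5a by 2.22 (menin-null) and 2.42 (wt). Sema4g, Sema4c and Sema3c also rose in both lines, by 1.86 to 2.29, and Sema5b, Sema6c, Sema7a, Sema6b and Sema4f by 0.59 to 1.30. Of the 2 dimmer probe sets of Sema6c, 1 gave -0.43 in the menin-null line and 0.03 in the wt line. The fall passed with every probe set tested on its own (adjusted p = 0.0356, limma). The other gave 0.23 (menin-null) and 0.27 (wt). For Sema7a the dimmer probe set gave -0.11 (menin-null) and 0.21 (wt). With the mean of all probe sets of a gene, several of which were dim, the rises were smaller, at 2.12 (menin-null) and 2.02 (wt) for Sema6d, 1.45 (menin-null) and 2.04 (wt) for Sema3a and 1.33 in the menin-null line for Sema6a, and all still passed the test.

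The semaphorins that fell were 3 membrane-bound ones of the Sema4 class and the secreted Sema3e, a ligand of Plxnd1. Sema4d, a ligand of Plxnb1, was at 8.21 and 8.41 in menin-null PILECs against 10.14 and 10.19 in menin-null mESCs, and at 8.03 and 7.88 in wt PILECs against 10.09 and 10.11 in wt mESCs. The groups did not overlap, and it fell by 1.86 ± 0.10 (menin-null) and 2.14 ± 0.10 (wt) on the probe set used. Of the 2 dimmer probe sets of Sema4d, 1 gave -1.21 (menin-null) and -1.38 (wt). The other went up, by 0.50 in the menin-null line (adjusted p = 0.00696, limma, every probe set tested on its own). In the wt line it gave 0.22 and did not pass. Sema4b fell by 1.84 (menin-null) and 1.67 (wt), Sema3e by 1.17 (menin-null) and 1.25 (wt), and Sema4a by 0.41 (menin-null) and 0.83 (wt). Sema3f, a secreted ligand of Nrp2, was high in all groups on the probe set used, which has the suffix _x_at. It was at 11.27 and 11.04 in menin-null PILECs, 10.94 and 11.13 in wt PILECs, 11.34 and 10.26 in menin-null mESCs, and 10.40 and 10.60 in wt mESCs. On this probe set the menin-null mESC arrays spanned the whole range of the other groups. Its differences of 0.36 (menin-null) and 0.54 (wt) did not pass the test. The other 2 probe sets of Sema3f were dimmer, with means over all arrays of 7.85 and 7.81. They rose by 1.06 and 1.25 in the menin-null line and passed with every probe set tested on its own. Both also rose in the wt line (adjusted p = 0.00065 and 1.6e-05, limma). Sema3b and Sema3g, both under 7, did not pass the test on the probe sets used.

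On the probe sets used, the calls of the semaphorin receptors went in a single direction. Of the 12 genes under plexins and neuropilins 11 rose in the menin-null and 10 in the wt line, and 0 fell in either (medians 1.28 in the menin-null and 1.27 in the wt line). Nrp1, the co-receptor of secreted semaphorins and of vascular endothelial growth factor, was at 11.41 and 11.15 in menin-null PILECs against 5.58 and 5.80 in menin-null mESCs, and at 11.41 and 11.46 in wt PILECs against 5.91 and 5.61 in wt mESCs. The rise was 5.59 ± 0.14 in the menin-null line and 5.67 ± 0.14 in the wt line, or 48.2-fold (menin-null) and 51.0-fold (wt), and its other 3 probe sets rose by 2.09 to 6.23. Plxnc1, the receptor of Sema7a, rose by 4.66 ± 0.13 (menin-null) and 4.16 ± 0.13 (wt), and Plxna2, a receptor of Sema6a and a partner of neuropilins, by 3.33 ± 0.15 (menin-null) and 4.20 ± 0.15 (wt). The mean of all 6 Plxnc1 probe sets rose by 1.88 (menin-null) and 1.57 (wt). Nrp2, the partner of Sema3f, rose by 2.63 (menin-null) and 2.30 (wt). Plxnb2, a receptor of the Sema4 class, was already at 9.35 to 9.62 in mESCs and rose by 1.06 (menin-null) and 1.17 (wt). Plxna3, Plxnd1, Plxna1, Plxna4 and Plxnb1 rose by 0.43 to 1.94, and Plxna4os1 gave -0.01 (menin-null) and -0.08 (wt), at a low signal.

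Of the 6 Slit and Robo genes 5 rose and 0 fell in each line (medians 0.91 in the menin-null and 1.80 in the wt line). Slit2, a secreted Slit ligand, was at 9.28 and 9.75 in menin-null PILECs against 5.94 and 5.65 in menin-null mESCs, and at 9.72 and 9.60 in wt PILECs against 5.73 and 5.52 in wt mESCs. Its PILEC and mESC arrays did not overlap, with differences of 3.72 ± 0.17 (menin-null) and 4.03 ± 0.17 (wt). Its receptor Robo1 rose by 1.97 (menin-null) and 2.19 (wt). Of its 2 dimmer probe sets, 1 rose by 3.88 (menin-null) and 3.65 (wt), and the other gave -0.29 in the menin-null and -0.51 in the wt line. Robo2 and Robo3, both under 7 in all groups, rose by 0.98 and 0.84 in the menin-null and by 2.20 and 1.41 in the wt line. The other probe set of Robo3 gave -0.12 (menin-null) and -0.40 (wt). Slit1 rose by 0.71 (menin-null) and 0.64 (wt) on the probe set used and by 2.74 (menin-null) and 3.35 (wt) on its other one. Slit3 was at 7.05 to 7.92 on the 8 arrays, and its differences of 0.28 (menin-null) and -0.28 (wt) did not pass the test.

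**Figure D2:**
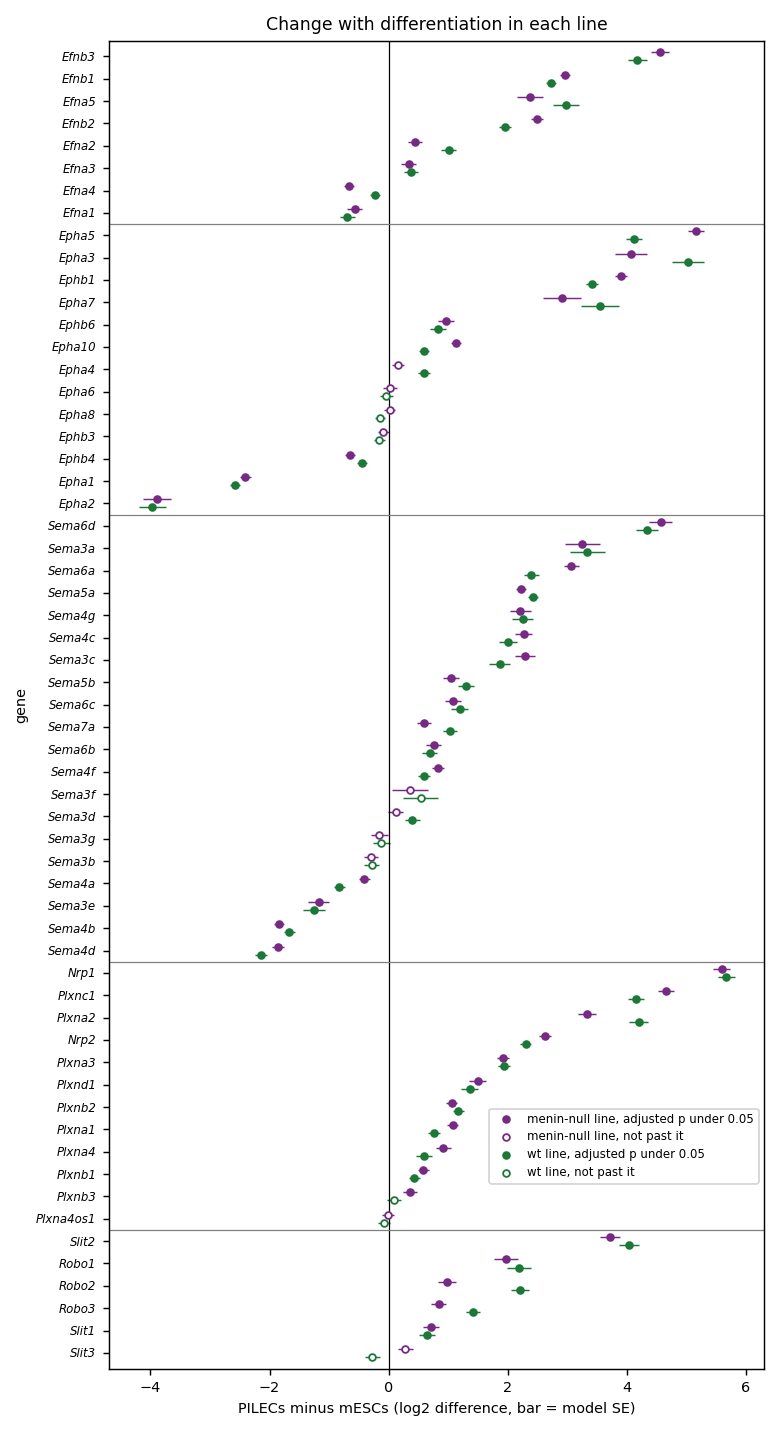
Difference between PILECs and mESCs (horizontal axis, log2, bars are the model SE) for each guidance gene in the menin-null line (purple) and in the wt line (green), with open points for genes not past an adjusted p of 0.05. The plexin and neuropilin points past the test all lie to the right of 0, with Nrp1 farthest at 5.59 (menin-null) and 5.67 (wt), while Epha2 is farthest to the left at -3.89 (menin-null) and -3.97 (wt).

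Among the guidance genes the signs of the calls were alike in both lines, and those that passed in a single line were few. Plxnb3 rose in the menin-null line alone (0.36, adjusted p = 0.0288), where the wt line gave 0.09 (adjusted p = 0.531, limma with Benjamini-Hochberg). Its menin-null group means were close to 7, at 7.09 in PILECs and 6.73 in mESCs. The other probe set of Plxnb3, a dimmer one, gave -0.22 (menin-null) and -0.26 (wt) and did not pass. Epha4 and Sema3d rose in the wt line alone, by 0.59 and 0.40, where the menin-null line gave 0.16 and 0.12. The difference between the lines did not pass its own test for any of these 3 genes (adjusted p = 0.453, 0.164 and 0.432). The counts over the guidance genes lay between 46 and 50 in the menin-null line and between 46 and 53 in the wt line under every alternative that kept the call rule, of which some tested fewer of the 59.

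The windows around transcription start sites were compared by their CG content. RefSeq windows were found for 51 of the 59 genes, 67 windows in all, with a median of 18 CG each. The median was 7 over all 32851 RefSeq windows, which belong to 27025 genes and not only to those of the array. At least 15 CG, a limit chosen after the values were seen, were present in 61.2% of the windows of guidance genes and in 34.6% of all windows. The share was 74.4% (32 of 43) in windows of genes that rose in both lines and 25% (4 of 16) in windows of genes that fell in both. The 43 windows belong to 34 genes and the 16 to 9 genes, with 4 from Sema4a and 3 from Sema4d. The Epha2 window printed above, with 10 CG, lies with the genes that fell, while Nrp1, the gene with the largest rise, has 14 and lies just under the limit. Windows of Efnb1, Ephb1 and Sema6d, which rose, and of Epha1, Ephb4 and Sema4a, which fell, also have 14. These are counts of letters and were not tested. Any CG at all was found in 94.6% of all windows, and CG reads the same on both strands.

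The next question was how menin-null and wt PILECs differed. Of the 59 guidance genes 6 passed the test, 4 higher and 2 lower in menin-null PILECs, where 6.68% of all genes passed (2.26% higher and 4.42% lower). These were 10.2% of the guidance genes, and 19 genes, or 32.2%, had an unadjusted p under 0.05, against 23.3% of all genes. None of the 6 differed by 2-fold or more, and the median over the guidance genes was 0.03, against -0.01 over all genes. For 54 of the 59 genes the 95% interval of the difference lay within 2-fold in either direction. This was a smaller share than over all genes, where it held for 17665 of 18193. The exceptions among the guidance genes were Epha5, Efna5, Robo2, Epha3 and Epha7.

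Epha5 had the largest difference among the genes that rose. The 2 menin-null PILEC arrays were at 9.83 and 10.15, and the 2 wt PILEC arrays at 9.18 and 9.04, with no overlap. The difference was 0.88 ± 0.13, or 1.84-fold (adjusted p = 0.0105, limma), and the other 3 probe sets of the gene gave 0.75, 0.29 and 0.27. With the mean of all its probe sets the call was lost (0.55, adjusted p = 0.0665). Epha10, the kinase-inactive receptor, was at 8.71 and 8.80 in menin-null PILECs against 8.17 and 8.10 in wt PILECs, a difference of 0.62 ± 0.08. Epha4, a receptor that binds ephrins of both classes, was at 8.14 and 8.25 in menin-null PILECs against 8.62 and 8.67 in wt PILECs and fell by 0.45 ± 0.10 (adjusted p = 0.0451, limma). Its other 4 probe sets were also lower, with differences from -0.93 to -0.34. Within the Eph receptors 2 genes rose and 1 fell, each with separate groups.

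Among semaphorins and their receptors, Sema4a and Plxna1 rose. Sema4a, a membrane-bound semaphorin known from immune cells and retina, was at 8.53 and 8.67 in menin-null PILECs against 8.04 and 7.89 in wt PILECs. The groups did not overlap, the difference was 0.63 ± 0.09 (adjusted p = 0.0105, limma), and its other probe set gave 0.36. Plxna1, which pairs with neuropilins to receive secreted semaphorins, was at 10.08 and 10.32 in menin-null PILECs against 9.79 and 9.75 in wt PILECs, a difference of 0.43 ± 0.10 (adjusted p = 0.0401, limma). Robo2, a Slit receptor, was at 4.64 and 5.01 in menin-null PILECs against 5.71 and 5.91 in wt PILECs. It fell by 0.98 ± 0.15, but all of its group means were under 7, so the signal was low throughout.

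Several ligands and receptors of the same systems did not pass the test. Efna5 was at 10.04 and 9.91 in menin-null PILECs against 10.79 and 10.81 in wt PILECs, a difference of -0.82 ± 0.22 (adjusted p = 0.0683, limma). These arrays did not overlap either, and the mESC arrays of this gene, which enter its variance estimate, ran between 7.31 and 8.09. Sema4d, Nrp2 and Plxna4 gave 0.36, 0.29 and 0.41. Slit1 gave 0.13 on the probe set used and -0.47 on its other one. Sema3a gave -0.30 on the probe set used. A dimmer probe set of Sema3a gave -1.15, which passed with every probe set tested on its own (adjusted p = 0.0121, limma).

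Calls in PILECs were lost in some fits with 1 array left out. Such a fit leaves a single array in a group and fewer arrays for the spread of every gene. The losses therefore cannot be read as particular to the guidance genes. Over all alternatives the difference was 0.55 to 1.04 for Epha5, 0.57 to 0.74 for Epha10 and 0.50 to 0.74 for Sema4a. It was 0.32 to 0.55 for Plxna1, -0.53 to -0.39 for Epha4 and -1.17 to -0.80 for Robo2. The study's threshold, a 2-fold difference or more together with a p under 0.005 before adjustment, passed 0 guidance genes. Markers of other cells also differed between these groups. Of 10 striated muscle markers 8 were lower in menin-null PILECs (mean over the list of 7.75 to 8.11 in menin-null and 9.21 to 9.54 in wt PILECs), and of 11 endoderm markers 6 were higher and 1 lower (9.53 to 9.77 in menin-null and 8.78 to 8.90 in wt PILECs). Of 9 glial markers 4 were higher (8.64 to 8.67 in menin-null and 8.14 to 8.21 in wt PILECs), with differences of 1.42 for Olig1 and 1.31 for Gfap, and of 9 mESC markers 5 were lower (8.68 to 8.77 in menin-null and 9.16 to 9.39 in wt PILECs). Of the 10 fibroblast markers Thy1 was higher, at 1.01, and Lum, Col1a2 and Twist1 were lower, at -1.07, -0.78 and -0.34 (10.1 to 10.5 in menin-null and 10.3 to 10.5 in wt PILECs). Syt1 alone of the 12 neuronal markers and Flt1 alone of the 8 endothelial markers passed, at 0.59 and 0.86, and 0 of the 19 islet markers did (limma, 6 at an unadjusted p under 0.05). The part of these markers in the guidance gene differences was not tested.

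**Figure D3:**
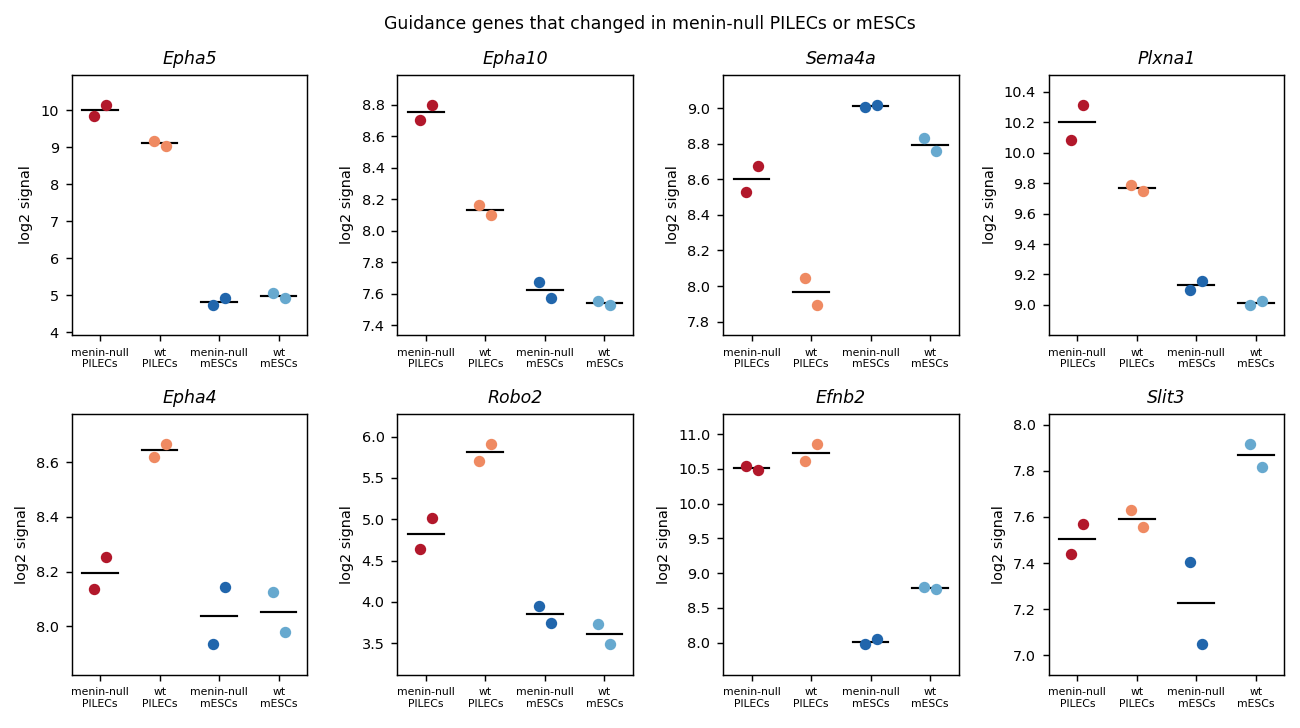
Log2 signal (vertical axis, own range in each panel) of the 8 guidance genes that passed the test in menin-null PILECs or menin-null mESCs, with 1 point per array and a line at the group mean. Epha5 reaches 9.83 and 10.15 in menin-null PILECs against 9.18 and 9.04 in wt PILECs, and Efnb2 reaches 7.97 and 8.05 in menin-null mESCs against 8.81 and 8.77 in wt mESCs.

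The same comparison in mESCs gave fewer calls. Of the 59 guidance genes 0 were higher and 2 lower in menin-null mESCs, or 3.39%, where 3.64% of all genes passed (1.29% higher and 2.36% lower), so the share was close to that of the whole table. At an unadjusted p under 0.05 there were 11 genes, or 18.6%, against 18.5% of all genes. The 95% interval lay within 2-fold for 56 genes, the exceptions being Efnb2, Epha3 and Epha7. Over all genes it did so for 17788 of 18193, a larger share. Efnb2 was at 7.97 and 8.05 in menin-null mESCs against 8.81 and 8.77 in wt mESCs. The groups were clearly apart, and it fell by 0.77 ± 0.10, or 1.71-fold (adjusted p = 0.00991, limma). Its other 3 probe sets were lower too, at -0.93, -0.38 and -0.14. In PILECs the gene was at 10.55 and 10.48 in menin-null and 10.61 and 10.86 in wt cells, and the difference of -0.22 did not pass the test.

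Slit3, the secreted Slit read by a single probe set, was at 7.40 and 7.05 in menin-null mESCs against 7.92 and 7.82 in wt mESCs, and fell by 0.64 ± 0.13 (adjusted p = 0.0367, limma). The arrays did not overlap, although the menin-null replicates were farther apart than the wt ones. Among the probe sets used, Plxna2 and Sema6a came next, at 0.60 (adjusted p = 0.0818) and -0.51 (adjusted p = 0.0817, limma), and did not pass. Sema3c and Plxnc1 gave -0.39 and -0.18 on the probe sets used. Dimmer ones gave -0.73 and -0.68 and passed with every probe set tested on its own (adjusted p = 0.0165 and 0.0361, limma). Epha3 gave 0.56, with menin-null mESC arrays at 5.22 and 4.28 against wt mESC arrays at 4.19 and 4.20. All of its mESC signals were low. Over all alternatives the difference in mESCs was -0.81 to -0.55 for Efnb2 and -0.82 to -0.46 for Slit3. Both genes lost their call in some fits with 1 array left out. Among the 12 neuronal markers Tubb3 and Elavl3 were higher in menin-null mESCs, by 0.61 and 0.96, and Gap43, Nefl and Nefm were lower, at -0.77, -0.45 and -0.73. Sparc and Gata4 of the 11 endoderm markers and Tek of the 8 endothelial ones were also lower, at -0.67, -0.50 and -0.77, and Thy1 was higher, at 0.39. Their part in the differences was not tested.

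**Figure D4:**
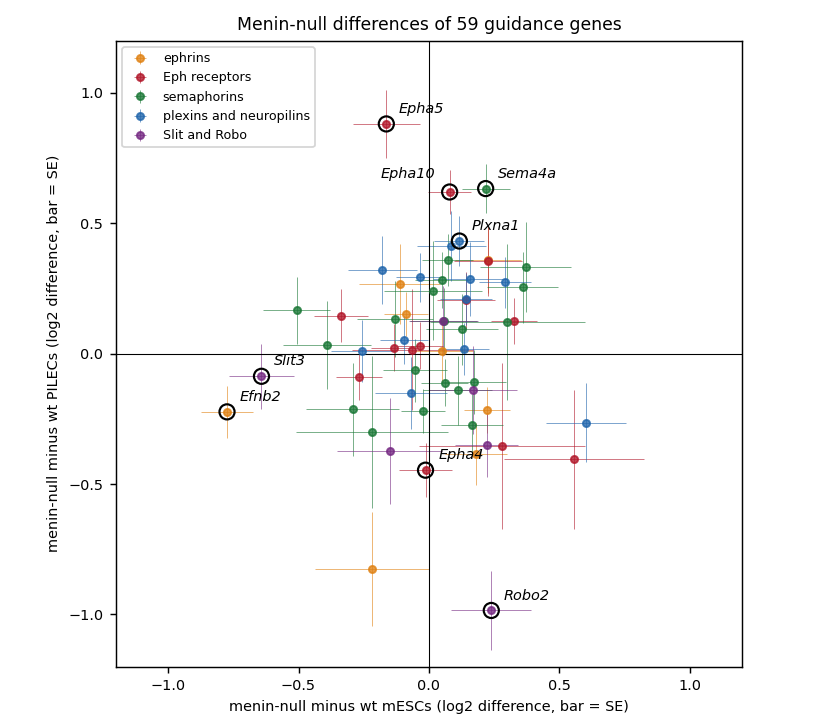
Menin-null minus wt difference of each guidance gene in mESCs (horizontal axis) and in PILECs (vertical axis), both log2 with bars for the model SE, coloured by family, with rings and names for the 8 genes past the test in either. Epha5 lies at 0.88 in PILECs and -0.16 in mESCs, Robo2 at -0.98 in PILECs and 0.24 in mESCs, and Efnb2 at -0.22 in PILECs and -0.77 in mESCs, and no ringed gene is past the test on both axes.

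Whether the menin-null difference depended on the cell type was tested as its own contrast, the difference in PILECs minus that in mESCs. It passed for 2 of 59 genes, or 3.39%, against 3.06% of all genes (1.5% higher and 1.57% lower), while 17 genes, or 28.8%, had an unadjusted p under 0.05, against 18.7% of all genes. The contrast was 1.04 ± 0.18 for Epha5 (adjusted p = 0.0292, limma), whose menin-null difference was 0.88 in PILECs and -0.16 in mESCs. It was -1.22 ± 0.22 for Robo2 (adjusted p = 0.0303, limma), with -0.98 in PILECs and 0.24 in mESCs, all at low signal. For Efnb2 it was 0.55 ± 0.14 (adjusted p = 0.0901) and for Slit3 0.56 ± 0.18 (adjusted p = 0.146, limma), so their menin-null effects in mESCs were not shown to differ from those in PILECs. Both calls of this contrast were lost without either wt PILEC array or either wt mESC array, 1 gene passed without either menin-null PILEC array, and there were 5 and 4 without menin-null mESC replicate 1 or 2. With the mean of all probe sets Epha5 gave 0.67 (adjusted p = 0.133, limma). With every probe set tested on its own, dimmer ones of Plxnc1 and Sema3a also passed this contrast. They gave 1.09 for Plxnc1 and -1.30 for Sema3a (adjusted p = 0.0306 and 0.0400, limma). The probe sets used for these 2 genes gave 0.50 and -0.08 and did not pass.

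The genes that act with these families were read from lists of 67 measured genes: 19 netrin and RGM ligands and receptors, 10 co-receptors and adhesion partners, and 38 cytoplasmic effectors. On differentiation 42 rose and 14 fell in the menin-null line, and 43 rose and 14 fell in the wt line. The share called was 83.6% in the menin-null and 85.1% in the wt line, beside 65% and 63.1% of all genes in the same order. Chl1, an adhesion molecule of the L1 family that partners with Nrp1, rose by 6.65 in the menin-null and 6.45 in the wt line. Cntn1, a contactin of axons, rose by 5.72 (menin-null) and 5.26 (wt), Ncam1 by 4.74 (menin-null) and 5.12 (wt), and Dpysl3, a collapsin response mediator of the semaphorin pathway, by 4.90 (menin-null) and 4.87 (wt). Grb7, an adaptor that binds receptor tyrosine kinases, fell by 4.37 (menin-null) and 4.19 (wt), and the exchange factor Arhgef16 fell by 1.94 (menin-null) and 2.29 (wt). Mical1, a plexin effector that oxidises actin, fell by 2.01 (menin-null) and 1.50 (wt), and Robo4, the Robo of endothelium, by 2.23 (menin-null) and 0.99 (wt).

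In menin-null PILECs 6 of the 67 rose and 2 fell relative to wt PILECs. The netrin receptor Unc5d rose by 0.67, Ntn4 by 0.62, and Dscam, another netrin receptor, by 0.63. Cntn1, L1cam and Ngef, an exchange factor that acts downstream of Eph receptors, rose by 0.63, 0.49 and 0.45. Met, the hepatocyte growth factor receptor that can pair with plexins, fell by 0.60 and Mical1 by 0.43. In menin-null mESCs Robo4 rose by 1.16 and Ncam1 by 0.52, and 0 of the 67 fell. The contrast between the cell types passed for Unc5d (0.78) and for Gipc1 (-0.53), an adaptor that binds Nrp1. The share called was 11.9% in PILECs and 2.99% in mESCs, beside the 6.68% and 3.64% of all genes given above.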

How the data were processed

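The 8 Affymetrix mouse genome arrays each received labelled RNA made from 6 µg. The authors deposited 1 log2 value per probe set and array. The processing notes name RMA and Partek and the methods name the Microarray Analysis Suite. No version is given for RMA or Partek in the sources used here. Which of them made the values is unknown. Of 45101 probe sets, 34945 had 1 symbol and gave 18193 genes, each by its brightest probe set, and 34741 matched RefSeq (GRCm38.p6).

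Group means were fitted over the 8 arrays in R 4.3.3 (limma 3.58.1, lmFit and eBayes), p-values were adjusted by Benjamini-Hochberg over 18193 genes, and a gene rose or fell where the adjusted p was under 0.05. The script was tested on simulated data. With 2 arrays a group an exact permutation p cannot go below 0.333. The number of arrays limits the precision.

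Members, gene lists and tests were chosen with earlier results of these data known. Named genes were those past the test with a group mean of at least 7, up to 12 per comparison by size, the member with the highest mean of each family, members whose probe sets disagreed, and list genes with the largest changes. Robo2, Efna5 and the other members outside that rule were named after their values were seen. Alternatives covered normalisation, low signals, probe sets, the samples fitted, the moderation, the study's threshold, replicate blocks and single arrays left out. H3K4me3 data were not analysed here.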

Additional observations from a re-analysis of the deposited data

Results flagged for a closer look

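The menin-null difference of Epha5 was not the same in the 2 cell types by a test of that difference itself: 0.88 in PILECs and -0.16 in mESCs, a gap of 1.04 (SE 0.18, adjusted p = 0.0292, limma). The menin-null PILEC arrays were at 9.83 and 10.15 against 9.18 and 9.04 in wt PILECs, while in mESCs the menin-null arrays were at 4.74 and 4.92 against 5.06 and 4.93 in wt cells, where the signal was low. Robo2 differed in the opposite sense by the same test, with -0.98 in PILECs and 0.24 in mESCs, a gap of -1.22 (SE 0.22, adjusted p = 0.0303, limma). All 8 Robo2 values were under 7. No group had enough arrays for a check of single arrays that stand apart.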

How the results depend on the processing

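The rises and falls on differentiation numbered between 33 and 35 of 59 genes at the study's threshold. Of all 18193 genes, 2462 rose and 3293 fell at that threshold in the menin-null line. In the wt line 2433 rose and 3092 fell. The 12 largest guidance gene differences on differentiation in each line kept direction and call under every alternative run, 16 each and 15 for Epha2. The only probe set of Epha2 has the suffix _a_at and was left out together with those of suffix _s_at and _x_at. The mean of all probe sets lowered Plxnc1 to 1.88 in the menin-null and 1.57 in the wt line. The menin-null calls did not. In mESCs the 2 calls became 1 after quantile normalisation, 0 with only those 4 arrays (12 genes at an unadjusted p under 0.05) and 0 at the study's threshold. Of all 18193 genes, 10 were higher and 67 lower in menin-null mESCs at that threshold. Leaving out 1 array gave 0 to 7 calls in mESCs, 0 to 8 in PILECs, 47 to 50 on differentiation of the menin-null line, 47 to 53 in the wt line and 0 to 5 for the difference between cell types. In PILECs the 6 calls became 0 at the study's threshold. The difference between cell types gave 4 calls with the mean of all probe sets and 4 with a trended, robust moderation. The deviations of same-numbered replicates had r of -0.18 between the lines in PILECs, -0.28 in mESCs, and 0.22 in the menin-null and 0.05 in the wt line between PILECs and mESCs, so the numbers were not taken to pair the samples. With the replicate block there were 1 call in mESCs, 4 in PILECs, and 0 for the difference between cell types (17 at an unadjusted p under 0.05, limma). A crossed pairing, chosen after seeing the data, gave 3, 7 and 3. No direction reversed in the results and alternatives run. Among single genes, Efnb2 lost its call in 3 of 16 settings, Epha10 in 2, Sema4a in 3, Epha5 in 4, Plxna1 in 7, Epha4 in 8 and Slit3 in 9. The cause of these losses was not tested, and neither was the part of the smaller number of arrays in the settings that leave some out. Signals under 7 may hold little of the transcript, and no background was measured.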
